A study of Mus musculus with 21 samples.

Results

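Cytosolic ribosomal proteins are the protein parts of the ribosome that works in the cytoplasm. The genes described here are the symbols that begin with Rpl or Rps followed by a number and at most a short suffix, together with the stalk genes Rplp0, Rplp1 and Rplp2 and the small-subunit gene Rpsa. They were 82 of the 14273 genes of the deposited table, 50 of the large subunit and 32 of the small subunit. RNA-seq covered 21 libraries in 7 groups of 3, all from the spleen of C57BL/6 mice according to the tissue label. From tumor-bearing mice there were CD45+ Ter119+CD71+ cells and CD45- Ter119+CD71+ cells, and the same pair of sorted populations came from mice labelled anemia and from mice labelled neonatal. Tumor-bearing mice also gave CD11b+Gr1+ MDSC, the myeloid-derived suppressor cells. Ter119 and CD71 are surface proteins of erythroid cells and CD45 is the common surface protein of leukocytes. The labels name no tumor, no method of inducing anemia and no ages, and they do not say that the libraries of a group came from separate animals, so each p-value covers no more than the variation among the libraries of a group, part or all of which may be technical.

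A ribosome takes up 1 copy of most of these proteins, so the genes are usually transcribed and translated as a block. Their mRNAs begin with a C followed by a run of pyrimidines, the terminal oligopyrimidine tract, through which mTOR signalling controls their translation. Erythroid precursors depend on this supply while they make globin: in people, loss of 1 copy of several of these genes causes Diamond-Blackfan anemia, a failure of red cell production. As erythroblasts mature, hemoglobin mRNA comes to dominate and ribosomes are lost.

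The windows around the RefSeq start sites of 5 genes that the results turn on are shown here, from 25 bases before the start to 25 bases from it, 5′ to 3′ on the gene's strand (RefSeq, GRCm38.p6). Capitals mark CTTTC, the first letters of many terminal oligopyrimidine tracts, or CCGGAAG, a core that ETS-family transcription factors are known to bind.
Rps27 (chr3:90213624-90213673, minus strand): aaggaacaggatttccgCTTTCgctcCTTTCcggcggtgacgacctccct
Rpl12 (chr2:32961687-32961736, plus strand): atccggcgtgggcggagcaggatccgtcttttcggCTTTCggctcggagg
Rplp0 (chr5:115559442-115559491, plus strand): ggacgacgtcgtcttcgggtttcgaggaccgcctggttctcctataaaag
Rpl41 (chr10:128549144-128549193, minus strand): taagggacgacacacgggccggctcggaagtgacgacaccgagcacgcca
Rps27l (chr9:66946061-66946110, plus strand): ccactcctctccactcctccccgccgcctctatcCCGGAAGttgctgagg

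RefSeq start sites were matched for 62 of the 82 genes, with 74 windows. CTTTC, searched on both strands, stood in 33.8% of these windows, against 12.5% of the 32851 windows of all genes. CCGGAAG on both strands stood in 13.5% of them, against 3.26% of all windows, and no window held overlapping matches of the 2 motifs. On the gene's own strand, CTTTC stood in 25.7% of the ribosomal protein windows and 6.75% of all windows. Rps27 and Rpl12 carry CTTTC near their starts, whereas the windows of Rplp0 and Rpl41 hold neither string. Rps27l has a second RefSeq start, not shown, whose window holds neither string. These are matches of letters only.

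The deposited values are log2 expression per gene. They were turned back to linear expression values, whose scale is not named, and levels of different genes are therefore not ranked against each other. Shares of summed values, ratios between genes or subunits and deviations from the family's median hold on this scale only. The summed values per library lay between 227961 and 349261, and 12294 to 13952 genes had a value. The number of reads is unknown. Over the 21 libraries, the Pearson correlation of each member with the median of the other members had a median of 0.927. Of the 80 genes that were tested, 65 exceeded 0.8. Correlations of genes outside the family with this median are not given, so these values do not show a movement particular to the family. Rpl3l and Rpl39l, relatives of Rpl3 and Rpl39 known from muscle and testis, were never above 1.02 and were not tested.

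Replicate 3 of the anemia CD45- cells stood apart from its group. The family's median value in it was 2.97 times the mean of replicates 1 and 2, and 78 of the 80 genes had their highest value of the group there. Replicate 3 of the tumor CD45- cells was raised in the same way but less far, at 1.44 times, with 71 of 80 genes highest. Both libraries also held the least hemoglobin of their groups, 11.3% and 20.8% of the summed values, and their part in the results was not tested. Counts of called genes that change without these libraries are given beside the counts with them.

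The sorted populations differed in more than CD45. All 14 erythroid markers, Klf1, Gata1, Tfrc and the globins among them, were lower in CD45+ than in CD45- cells in tumor, anemia and neonatal mice. All 8 B cell markers and all 10 neutrophil markers were higher in CD45+ cells in each of these 3 comparisons. The summed B cell markers came to 136.6 to 553.2 in tumor CD45+ cells and 1.504 to 3.07 in tumor CD45- cells, to 776.0 to 936.0 in anemia CD45+ cells and 2.05 to 12.04 in anemia CD45- cells, and to 100.1 to 343.1 in neonatal CD45+ cells and 1.72 to 4.52 in neonatal CD45- cells. The summed neutrophil markers were 11063 to 29164 in tumor CD45+ cells and 31.9 to 370.5 in tumor CD45- cells. None of these B cell or neutrophil markers was at 0 throughout a group. Their part in the ribosomal protein results was not tested, and in sorted bulk RNA fewer cells of a type and less RNA per cell cannot be told apart.

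Ribosomal protein genes took a larger share of the summed values in CD45+ cells than in CD45- cells of tumor-bearing and neonatal mice. In tumor CD45+ cells they held 8.74%, 8.46% and 8.73%, against 3.23%, 4.41% and 6.78% in tumor CD45- cells. In neonatal CD45+ cells they held 8.49%, 9.24% and 9.55%, against 5.20%, 5.40% and 5.85% in neonatal CD45- cells. Neither pair of groups overlapped. In anemia CD45+ cells the share was 10.2%, 11.2% and 10.4%, against 2.78%, 3.59% and 11.3% in anemia CD45- cells, so that replicate 3 of the CD45- cells lay above all 3 CD45+ libraries. MDSC held 7.13%, 6.56% and 5.09%, below every CD45+ library.

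The share of hemoglobin was measured beside it. The 10 hemoglobin genes took 4.96% to 6.53% of the summed values in tumor CD45+ cells and 20.8% to 46.3% in tumor CD45- cells. In anemia cells they took 1.29% to 14.9% of CD45+ libraries and 11.3% to 41.1% of CD45- libraries. In neonatal cells they took 2.42% to 8.97% of CD45+ libraries and 27.6% to 39.2% of CD45- libraries, and MDSC held 0.487% at most. With hemoglobin left out of the sum, ribosomal protein genes averaged 9.17% in tumor CD45+ and 7.08% in tumor CD45- cells, 11.65% in anemia CD45+ and 7.66% in anemia CD45- cells, 9.66% in neonatal CD45+ and 8.43% in neonatal CD45- cells, and 6.28% in MDSC. The order of each pair of means was kept and the gaps were narrower.

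**Figure D1:**
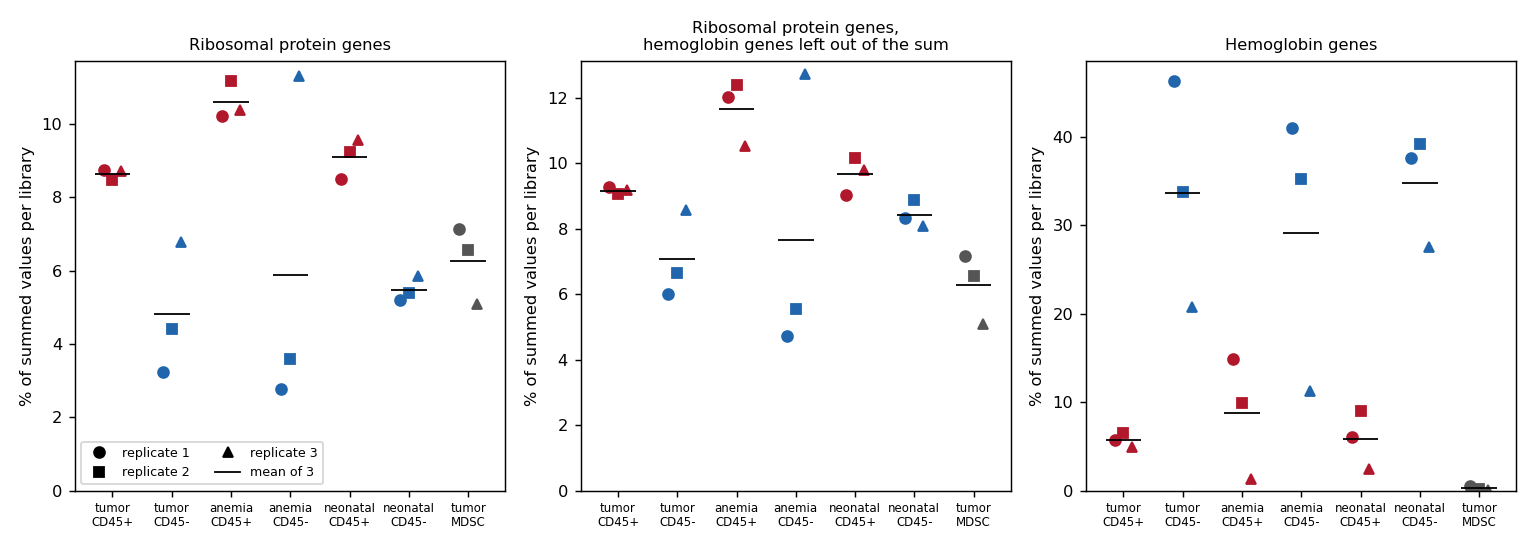
Share of each library's summed expression values, in percent, held by the ribosomal protein genes (left), by the same genes with hemoglobin left out of the sum (middle) and by the 10 hemoglobin genes (right). Points are libraries, marked by replicate number, and lines are means of 3. Ribosomal protein shares average 8.64% in tumor CD45+ and 4.81% in tumor CD45- cells, and the triangle of the anemia CD45- cells, at 11.3%, sits far above that group's other points.

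In tumor-bearing mice, 28 of the 80 tested ribosomal protein genes were higher and 1, Rpl41, was lower in CD45+ than in CD45- cells (limma on log2 of the value plus 1, adjusted p below 0.05), but under median-ratio scaling the balance turned, with 1 higher and 5 lower. Of all 11195 genes tested, 61.1% were called in this comparison (50.2% higher, 10.9% lower), so the 36.2% of ribosomal protein genes called is below the background. The libraries of the 2 groups did not overlap for 54 of the 80, beside 66.3% of all genes. Their median log2 fold change was 0.73, beside 0.75 for all genes. Median-ratio scaling, which sets libraries equal on their typical gene, brought the median of all genes to 0.10 and that of the ribosomal protein genes to -0.22. By these medians the family was level with all genes in the values as deposited and lower after that scaling. The scaling divides each library by a single factor, and the 1 added before the log shrinks fold changes of low values most. The medians therefore do not settle where the family stood relative to the typical gene. No share of all genes called under median-ratio scaling stands beside the counts of 1 and 5. The number of calls also depended on the libraries, at 13 without CD45- replicate 1, 16 without CD45- replicate 2, 17 without CD45+ replicate 1 and 18 without CD45+ replicate 2, beside 40 without CD45- replicate 3.

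Median-ratio scaling also turned the counts in anemia and neonatal mice, and no share of all genes called under it stands beside them. In anemia mice 45 genes were higher in CD45+ cells and 1 was lower, against a background of 58.7% called (47.4% higher, 11.3% lower), with a median of 0.88 beside 0.68 for all genes, and under median-ratio scaling 3 were higher and 4 lower with a median of 0.00. Without the outlying CD45- replicate 3, 72 genes were higher and 1 lower and the median was 1.44, whereas 18 were higher and 1 lower without CD45- replicate 1, 20 and 1 without CD45- replicate 2, and 27 and 1 without CD45+ replicate 2. The anemia groups did not overlap for 20 of the 80 genes, beside 63.9% of all genes. In neonatal mice 7 genes were higher and 1 lower, against a background of 59.9% called (49.6% higher, 10.3% lower), with a median of 0.50 beside 0.75 for all genes, and median-ratio scaling gave 0 higher and 9 lower with a median of -0.43. The neonatal groups did not overlap for 57 of the 80, beside 67.9% of all genes, and the count of calls ranged from 3 to 6 as single libraries were left out. The difference between the tumor and the anemia contrast, and that between the tumor and the neonatal contrast, passed for 0 of 80 genes in limma, with 0 at an unadjusted p under 0.05. The background called in these 2 tests of difference was 2.2% and 1.08%.

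**Figure D2:**
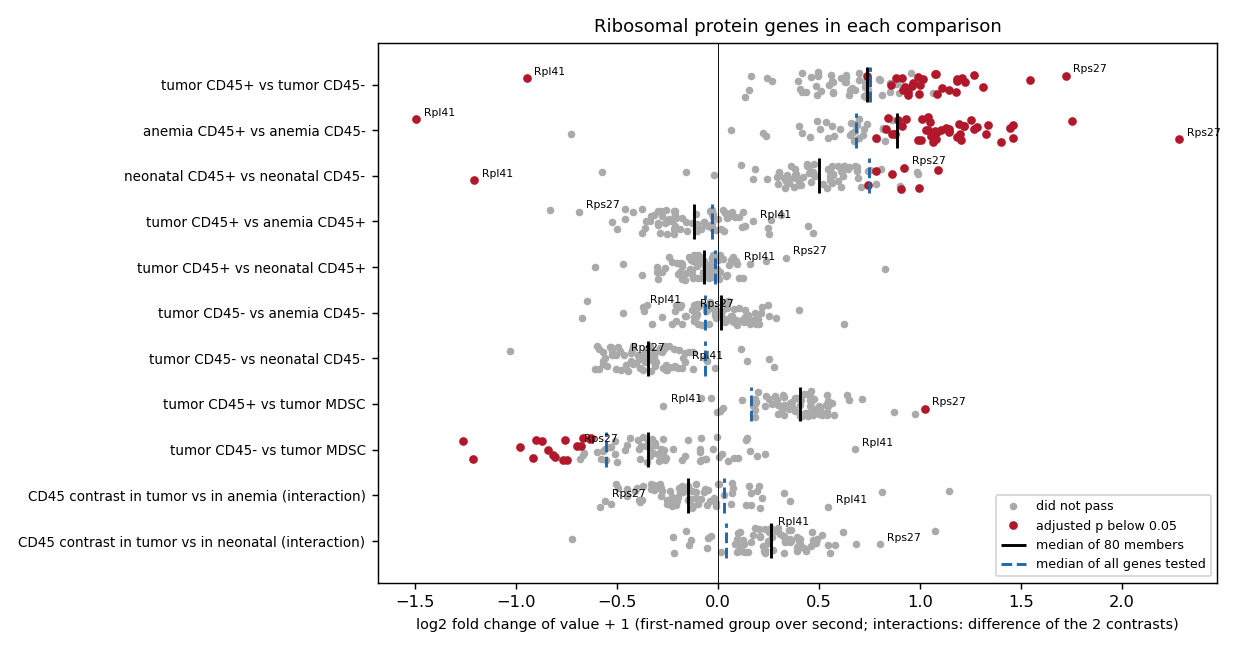
Log2 fold changes of the 80 tested ribosomal protein genes in each comparison, first-named group over second, with red points at an adjusted p below 0.05 in limma. Black bars are the medians of the 80 genes and dashed blue bars those of all genes tested. In the 3 CD45 contrasts the values as deposited lie to the right, with medians of 0.73, 0.88 and 0.50, and Rpl41 lies alone at the left, while median-ratio scaling gives medians of -0.22, 0.00 and -0.43.

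Called genes stood in both subunits. In tumor mice 16 of 48 large-subunit genes and 12 of 32 small-subunit genes were higher in CD45+ cells, with median log2 fold changes of 0.73 and 0.77. In anemia mice the counts were 25 and 20, with medians of 0.83 and 1.02. In neonatal mice they were 3 and 4, with medians of 0.55 and 0.44. Beside these stand 50.2%, 47.4% and 49.6% of all genes higher in the 3 states. Under median-ratio scaling 0 large-subunit genes were higher and 5 lower in tumor mice, 1 and 2 in anemia mice and 0 and 7 in neonatal mice, and of the small subunit 1 and 0, 2 and 2, and 0 and 2. With hemoglobin left out and the rest rescaled, large-subunit counts were 4 and 1, 22 and 1, and 0 and 1. The small-subunit counts were 6 and 0, 18 and 0, and 1 and 0. Quantile normalization gave 16 and 1, 30 and 1, and 2 and 1 for the large subunit. For the small subunit it gave 11 and 0, 22 and 1, and 4 and 0. No share of all genes called under these scalings stands beside the counts. In the values as deposited, the higher genes in tumor mice numbered 24 and 15 without CD45- replicate 3. Without CD45- replicate 1 they numbered 8 and 5. Without the outlying anemia CD45- replicate 3 they numbered 44 and 28 in anemia mice, and without CD45- replicate 1 they numbered 7 and 11. In neonatal mice leaving out a library gave 0 to 2 and 2 to 3. The gene lower in each contrast, Rpl41, belongs to the large subunit. The summed large-subunit values were 1.13 times the small-subunit values in tumor CD45+ cells and 1.27 times in tumor CD45- cells, 1.12 and 1.27 times in anemia CD45+ and CD45- cells, 1.16 and 1.24 times in neonatal CD45+ and CD45- cells, and 1.11 times in MDSC.

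Rps27, a small-subunit protein with a zinc finger, had the largest positive fold change of the family in the tumor and anemia contrasts. Its value was 369.5, 354.9 and 575.8 in tumor CD45+ cells, against 113.7, 118.8 and 152.9 in tumor CD45- cells. Every tumor CD45+ library lay above every tumor CD45- library. It was 653.2, 682.3 and 711.7 in anemia CD45+ cells, against 90.6, 117.4 and 254.0 in anemia CD45- cells, again without overlap although CD45- replicate 3 was the highest of its group. In neonatal mice it was 286.5, 301.2 and 436.5 in CD45+ cells, against 158.4, 163.8 and 211.6 in CD45- cells.

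The log2 fold changes of Rps27 were 1.72 ± 0.34 (SE) in tumor, 2.28 ± 0.34 in anemia and 0.92 ± 0.34 in neonatal mice, with limma adjusted p of 3.0e-04, 2.0e-05 and 0.025 (n = 3 libraries a group). In tumor and anemia mice its call and direction were kept under each alternative run, among them all 4 scalings, and under each library left out. In neonatal mice the call of Rps27 was lost without CD45+ replicate 3, CD45- replicate 1 or CD45- replicate 2, and its fold change was -0.01 after median-ratio scaling. Rps27 shares reads with copies: 63.1% of its 50-base stretches also occur in other genes' transcripts (GENCODE vM21).

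Rps27rt, a retroposed copy of Rps27, was set beside it. In 16 libraries the value of Rps27rt was 1.02 to 1.12 times that of Rps27, and in the other 5 libraries Rps27rt was blank. The blank libraries were tumor CD45+ replicate 3, anemia CD45+ replicate 3, neonatal CD45+ replicate 1 and MDSC replicates 1 and 3. Rps27 itself was 575.8 in the blank tumor CD45+ library, beside 369.5 and 354.9 in its group. In anemia CD45+ cells it was 711.7 in the blank library, beside 653.2 and 682.3. In neonatal CD45+ cells it was 286.5, beside 301.2 and 436.5, and in MDSC 210.1 and 220.9, beside 192.6. How reads of both genes were counted was not tested, so a sum may count the same reads in both. The sum of both genes was 765.9, 730.0 and 575.8 in tumor CD45+ cells, against 233.2, 252.1 and 321.9 in tumor CD45- cells. It was 1334, 1393 and 711.7 in anemia CD45+ cells, against 187.1, 243.3 and 539.7 in anemia CD45- cells. Both pairs stayed apart. In neonatal mice the sums were 286.5, 614.6 and 879.6 in CD45+ cells, against 336.2, 336.9 and 438.8 in CD45- cells, and these overlapped. The sum of 286.5 came from the library in which Rps27rt was blank, so the Rps27 level is uncertain there.

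Rpl41, the smallest ribosomal protein, went the other way. It had values of 235.4, 315.6 and 130.7 in tumor CD45+ cells, against 411.5, 428.3 and 399.5 in tumor CD45- cells. In anemia mice it had 177.4, 230.4 and 166.3 in CD45+ cells, against 449.1, 482.4 and 709.4 in CD45- cells. In neonatal mice it had 173.0, 292.6 and 158.2 in CD45+ cells, against 637.2, 345.5 and 452.3 in CD45- cells. In all 3 states every CD45+ library lay below every CD45- library. MDSC spread widely, at 231.9, 678.9 and 108.6.

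The log2 fold changes of Rpl41 were -0.95 ± 0.35 in tumor, -1.49 ± 0.35 in anemia and -1.21 ± 0.35 in neonatal mice (SE, limma adjusted p = 0.025, 0.0013 and 0.0063, n = 3 libraries a group). All 4 scalings kept these directions and calls. The anemia and neonatal calls of Rpl41 were kept with each library left out. The tumor call was lost without CD45+ replicate 3 (adjusted p = 0.15), CD45- replicate 1 (0.055) or CD45- replicate 2 (0.063), and in the limma fit of all 21 libraries (0.088). Rpl41 was also the one gene whose correlation with the median of the others over 21 libraries was negative, at -0.41.

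**Figure D3:**
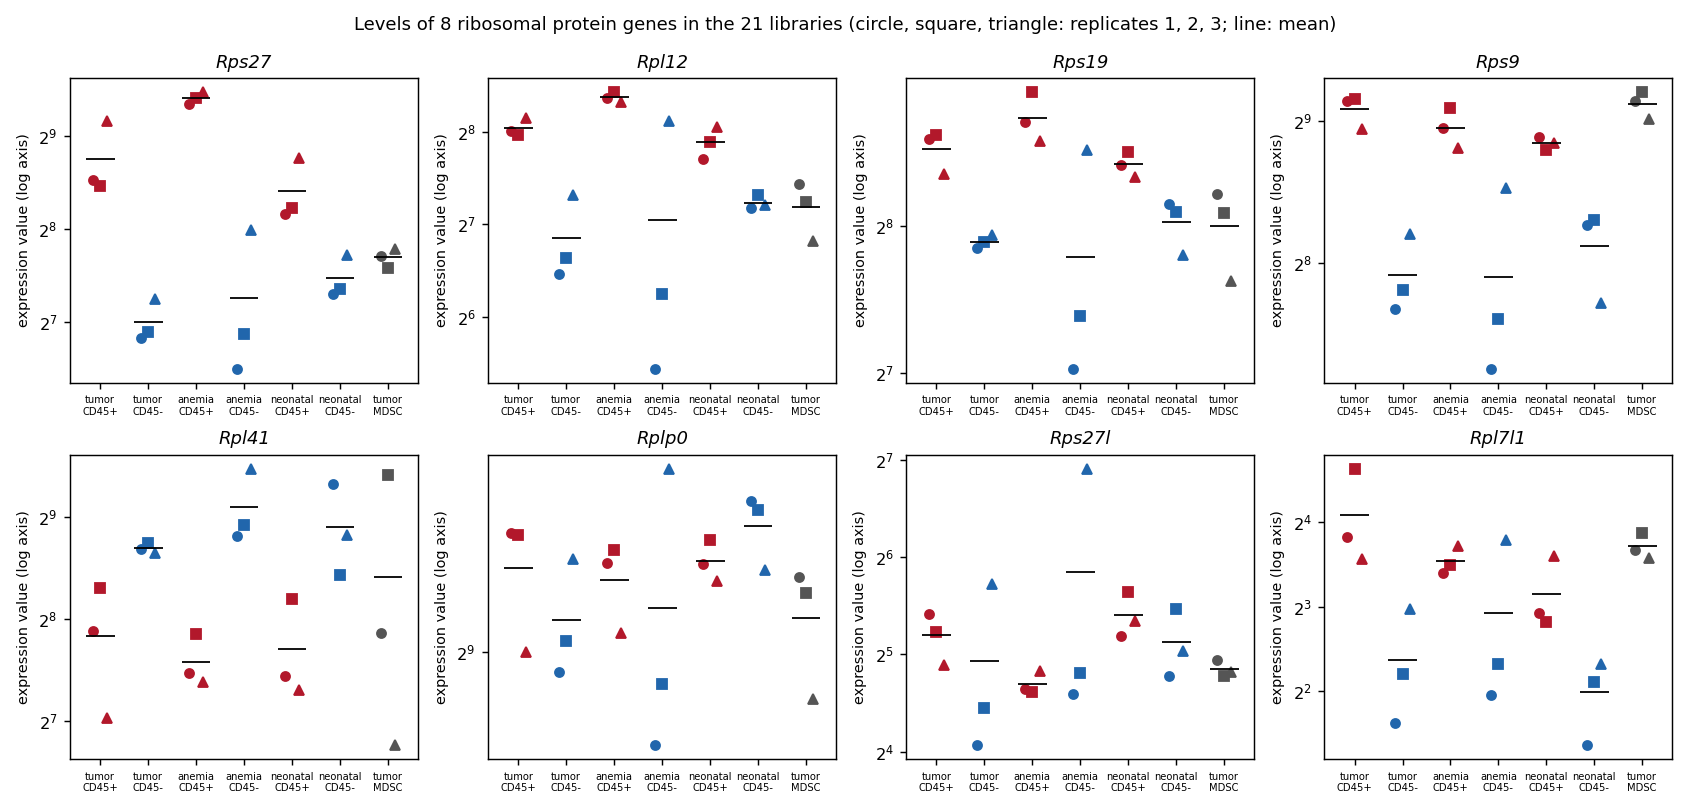
Expression values, on a log axis, of 8 ribosomal protein genes in the 21 libraries, with circles, squares and triangles for replicates 1, 2 and 3 and lines for means of 3. Rps27 and Rps9 are higher in every CD45+ library than in the CD45- libraries of the same state, Rpl41 is lower, and Rplp0 and Rps27l overlap, in the values as deposited; median-ratio scaling turns Rps27 to -0.01 in neonatal mice.

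Rpl12, a large-subunit protein at the base of the stalk, had the second-largest fold change in anemia mice. It had 329.8, 343.5 and 320.1 in anemia CD45+ cells, against 43.6, 76.4 and 277.1 in anemia CD45- cells, a log2 fold change of 1.75 ± 0.45 (SE, limma adjusted p = 0.0028). The groups did not overlap, and the call was kept with each library left out. Rpl17, a large-subunit protein at the exit of the peptide tunnel, followed with 1.46 ± 0.45 (limma adjusted p = 0.0098). Its call was lost without CD45- replicate 1 (adjusted p = 0.064) or CD45- replicate 2 (0.052), and after median-ratio scaling its fold change was 0.57 with an adjusted p of 0.13.

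The stalk proteins recruit the translation factors that hydrolyse GTP. Rplp0, the base of the stalk, had 756.5, 751.7 and 510.6 in tumor CD45+ cells, against 478, 530.0 and 694 in tumor CD45- cells. Its groups overlapped in each state, and its log2 fold changes of 0.24, 0.24 and -0.16 in tumor, anemia and neonatal mice missed the threshold (limma adjusted p = 0.53, 0.55 and 0.68). Rplp1 gave 0.50, 0.68 and -0.58, none past the threshold, and its highest value, 559, came from a single anemia CD45+ library whose group otherwise had 128 and 87.1. Rplp2 was called in anemia mice, with 384, 429.7 and 398 in CD45+ cells, against 152, 194 and 357 in CD45- cells (log2 fold change 0.88 ± 0.28, limma adjusted p = 0.012). That call was lost without CD45- replicate 1 (adjusted p = 0.075), and the fold change was -0.01 after median-ratio scaling.

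Genes whose human orthologs are mutated in Diamond-Blackfan anemia form a list of 23 members of the family. In tumor mice 9 of 23 were higher in CD45+ cells, in anemia mice 16 and in neonatal mice 3, with 0 lower, whereas median-ratio scaling gave 1 higher and 1 lower, 1 higher and 0 lower, and 0 higher and 3 lower. Of all genes 50.2%, 47.4% and 49.6% were higher in the values as deposited. No such share under median-ratio scaling stands beside the counts given for it. The list's median log2 fold changes were 0.85, 1.04 and 0.61. Leaving out single libraries gave 4 (without CD45- replicate 1) to 12 (without CD45- replicate 3) higher in tumor mice and, in anemia mice, 6 without CD45- replicate 2 and 21 without the outlying CD45- replicate 3. In neonatal mice 1 was higher in 5 of the 6 such fits and 2 without CD45- replicate 2. Rps19, the gene most often mutated in that disease, had 417, 479 and 380.1 in anemia CD45+ cells, against 131, 167 and 365 in anemia CD45- cells. The groups were separate by a narrow gap, and the log2 fold change of 1.08 ± 0.30 (SE, limma adjusted p = 0.0057) kept its call with each library left out but was 0.19 after median-ratio scaling. In tumor and neonatal mice Rps19 had 0.63 and 0.40 (limma adjusted p = 0.084 and 0.27).

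Rpl5 and Rpl11 bind the 5S rRNA and, when free, hold back Mdm2, the p53 ligase. Rpl11 gave log2 fold changes of 0.99 ± 0.38 in tumor and 1.03 ± 0.38 in anemia mice (SE, limma adjusted p = 0.033 and 0.028), and Rpl5 gave 1.27 ± 0.46 in anemia mice (adjusted p = 0.025). Each of these 3 calls was lost in 4 of the 6 fits that left out a library, CD45- replicates 1 and 2 among them. In anemia CD45- cells the outlying replicate 3 was above all 3 anemia CD45+ libraries for Rpl5, which had 195, 198 and 214 in CD45+ cells, against 45.4, 55.9 and 227 in CD45- cells. Calls of Rpl10, Rps4x and Rps6 in anemia mice, and of Rpl10 in tumor mice, were likewise lost in 3 to 5 of the 6 such fits, those without CD45- replicate 1 or 2 included. Rps6, the substrate of S6 kinase, gave 0.89 ± 0.37 in anemia mice (limma adjusted p = 0.048).

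Among the paralogs, 1 was called in tumor mice. Rpl7l1, a relative of Rpl7, had 14.2, 24.9 and 11.9 in tumor CD45+ cells, against 3.08, 4.63 and 7.84 in tumor CD45- cells (log2 fold change 1.55 ± 0.40, limma adjusted p = 0.0030). The groups did not overlap, and the call was kept with each library left out, but it missed the threshold after median-ratio scaling (0.70, adjusted p = 0.064) and quantile normalization (0.69, adjusted p = 0.088). In neonatal mice Rpl7l1 gave 0.99 (limma adjusted p = 0.040), a call lost in 4 of 6 fits without a library and a fold change of -0.01 after quantile normalization. Rpl22l1, a paralog of Rpl22, was called in none of the 3 states, at 0.61, 0.40 and 0.74, beside 0.73, 0.57 and 0.46 for Rpl22, which was not called either. Rps27l, a p53 target related to Rps27, had 25.03, 24.4 and 28.5 in anemia CD45+ cells, against 24.1, 28.1 and 120.1 in anemia CD45- cells, and was not called.

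A few genes followed the common pattern least. Besides Rpl41, the lowest correlations with the others' median were 0.26 for Rplp1, 0.46 for Rpl29, 0.49 for Rps27l and 0.51 for Rps29. Rpl29 had 7.30, 86.0 and 112 in anemia CD45- cells and 174, 152 and 11.5 in neonatal CD45- cells. These swings within a group exceed any difference between groups for this gene. Over the family a median of 41.0% of the 50-base stretches also occurs in other genes' transcripts, from 0% to 86.7% with 29 genes above 50%, so values of many single members could be split or shared with pseudogenes.

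To see which genes moved apart from the family, values were scaled to the family's own median in each library, a setting chosen after the data were seen, and tested in limma over all genes. Rpl41 was lower relative to the family in CD45+ cells of all 3 states. Its deviation from the family's median, in log2, was -0.26, 0.20 and -0.93 in tumor CD45+ cells, against 1.80, 1.62 and 1.11 in tumor CD45- cells. In anemia mice it was -0.72, -0.46 and -0.68 in CD45+ cells, against 2.28, 2.07 and 1.21 in CD45- cells. In neonatal mice it was -0.56, -0.02 and -0.91 in CD45+ cells, against 1.70, 0.73 and 1.36 in CD45- cells. The 9 CD45+ libraries lay below the 9 CD45- libraries without overlap, and anemia CD45- replicate 3 was no exception. The tested differences were -1.84, -2.47 and -1.76 (SE 0.37 each, limma adjusted p = 5.6e-04, 4.3e-05 and 9.4e-04), and none was lost when a library was left out.

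Rps27 was higher relative to the family in CD45+ cells of tumor mice by 0.83 ± 0.27 and of anemia mice by 1.31 ± 0.27 (log2, SE, limma adjusted p = 0.017 and 8.2e-04). The anemia call of Rps27 was kept with each library left out, and the tumor call was lost without CD45+ replicate 3 (adjusted p = 0.10), 1 of the libraries in which Rps27rt was blank. In neonatal mice the difference of 0.37 missed the threshold (limma adjusted p = 0.28). In anemia mice Rps27l was lower relative to the family (log2 difference -1.67 ± 0.29, limma adjusted p = 1.6e-04), opposite to its relative Rps27, and this too was kept with each library left out. Rps27l deviated by -3.49, -3.64 and -3.19 in anemia CD45+ cells, against -1.89, -1.98 and -1.34 in anemia CD45- cells.

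Rplp0 was lower relative to the family in all 3 states, by differences of -0.65, -0.74 and -0.72 (SE 0.22 each, limma adjusted p = 0.020, 0.010 and 0.014). Its deviations were 1.42, 1.45 and 1.03 in tumor CD45+ cells, against 2.02, 1.93 and 1.91 in tumor CD45- cells. The 9 CD45+ libraries again lay below the 9 CD45- libraries. The anemia call of Rplp0 was kept with each library left out, the tumor call was lost without CD45+ replicate 3 (adjusted p = 0.092) or CD45- replicate 1 (0.052), and the neonatal call without CD45+ replicate 3 (0.075). Rps2, which lines the mRNA entry of the small subunit, was lower relative to the family in anemia mice (-0.92, limma adjusted p = 0.010), with each library left out as well. Rpl6 also lay lower in all 9 CD45+ libraries.

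**Figure D4:**
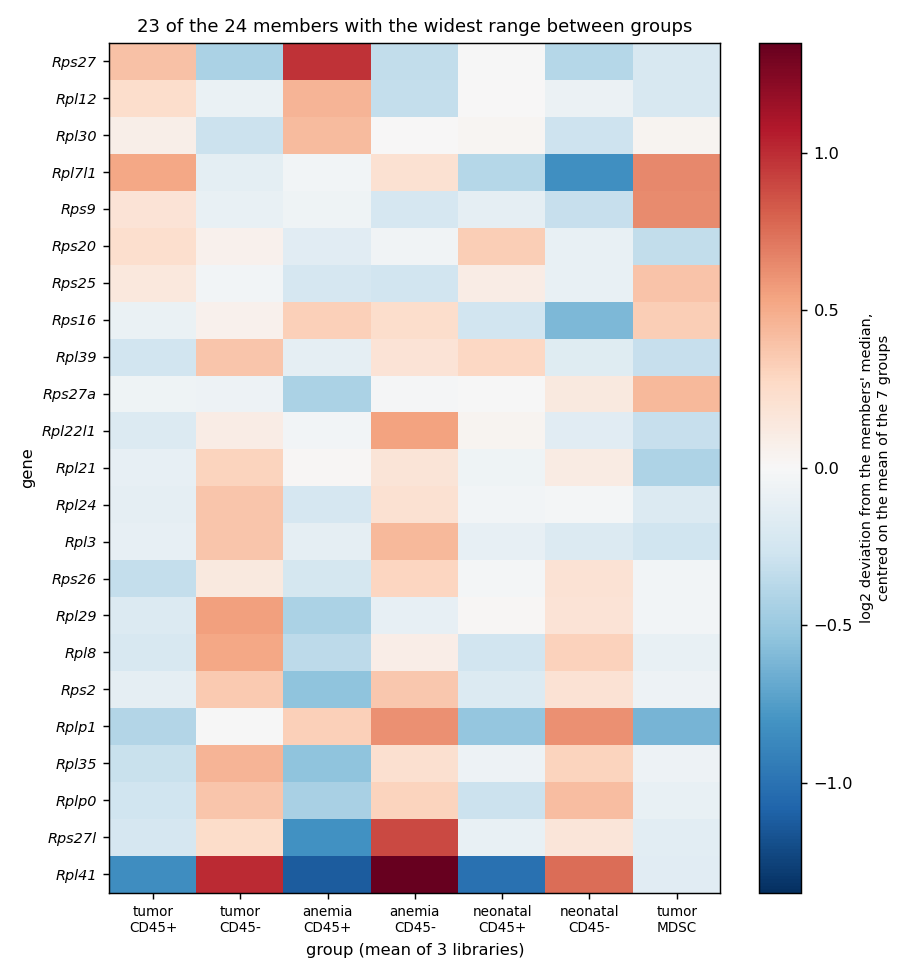
Deviation of each gene from the family's median in log2, averaged over 3 libraries and centred on the mean of the 7 groups, for 23 of the 24 genes with the widest range between groups. Rpl41 and Rplp0 are low in the 3 CD45+ columns and high in the 3 CD45- columns, Rps27 is highest in anemia CD45+ cells, and Rps9 and Rpl7l1 are high in MDSC.

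The CD45+ cells of tumor-bearing mice were next set beside those of the other states, where the question in the series' design is how these cells differ between conditions. No ribosomal protein gene was called against anemia CD45+ or neonatal CD45+ cells, with 0 of 80 at an unadjusted p under 0.05 in limma in either comparison. The background called was 10.7% and 6.61% of all genes. Tumor CD45+ libraries did not overlap anemia CD45+ libraries for 25 of the 80 genes, and neonatal CD45+ libraries for 6. No count of all genes stands beside these, so they do not show a difference particular to the family. The fit took each gene's spread from CD45+ and CD45- libraries together. The SD of the family's share was 0.16 and 0.50 in tumor and anemia CD45+ cells, against 1.81 and 4.70 in the matching CD45- cells. In neonatal mice it was 0.55 in CD45+ and 0.34 in CD45- cells. The missed threshold therefore does not show equal levels. The family's median log2 fold changes were -0.12 against anemia CD45+ cells and -0.07 against neonatal CD45+ cells, beside -0.03 and -0.02 for all genes. The family's share was 8.46% to 8.74% in tumor CD45+ cells and 10.2% to 11.2% in anemia CD45+ cells, without overlap. In neonatal CD45+ cells it was 8.49% to 9.55%, which overlapped the tumor CD45+ range. Quantile normalization called 1 gene lower against anemia CD45+ cells, and leaving off the filter on low values called 1 lower against neonatal CD45+ cells. Against anemia CD45+ cells, where the family's share was higher in anemia, 7 of 8 B cell markers were lower and 9 of 10 neutrophil markers higher in tumor CD45+ cells, and the part of this in the shares was not tested.

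No ribosomal protein gene was called between the CD45- cells of different states. Against anemia CD45- cells the median was 0.01 and against neonatal CD45- cells -0.35, beside -0.06 and -0.07 for all genes, with backgrounds of 0.152% and 2.54% called. In both, limma called 0 of 80 genes and 0 were at an unadjusted p under 0.05. In 17 of the 80 genes the tumor CD45- and neonatal CD45- libraries did not overlap, beside 18.9% of all genes tested. Only 4 of 80 had a fold change above 0 in that comparison. A p that misses the threshold does not show equal levels, and the spread of the CD45- groups was wide.

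Against MDSC, tumor CD45+ cells had 1 gene called higher, Rps27, and 0 lower, with a background of 6.42% called (5.42% higher). Its values of 369.5, 354.9 and 575.8 in tumor CD45+ cells, against 210.1, 192.6 and 220.9 in MDSC, gave a log2 fold change of 1.02 ± 0.25 (SE, limma adjusted p = 0.037). The groups did not overlap, but the call was lost when any 1 of the 6 libraries was left out (adjusted p = 0.059 to 0.14), and Rps27rt was blank in 3 of these 6 libraries. In limma 9 of the 80 genes were at an unadjusted p under 0.05. The share of all genes at that unadjusted p is not given, so this count does not show a difference particular to the family. The family's median was 0.41, beside 0.16 for all genes.

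Tumor CD45- cells had 17 genes lower and 0 higher than MDSC, 21.2% of the family beside a background of 56.4% (42.1% lower), but median-ratio scaling gave 16 higher and 1 lower, and leaving hemoglobin out and rescaling gave 6 higher and 1 lower. The family's median log2 fold change was -0.35, beside -0.56 for all genes, and 0.37 after median-ratio scaling. Without tumor CD45- replicate 3 the count of lower genes was 39, and it was 5 without MDSC replicate 1. The direction of the family as a whole in this comparison therefore depends on the scaling. The hemoglobin share of 20.8% to 46.3% in tumor CD45- cells stands against at most 0.487% in MDSC.

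Rps9, a small-subunit protein known for its part in decoding accuracy, was lower under every alternative run. It had 205.1, 224.4 and 295.5 in tumor CD45- cells, against 562.7, 588.3 and 515.7 in MDSC, a log2 fold change of -1.21 ± 0.23 (SE, limma adjusted p = 8.4e-04). No library overlapped. Relative to the family its log2 difference was -0.73 ± 0.17 (limma adjusted p = 0.0040), and this was kept with each library left out. Tumor CD45+ cells, at 562.9, 569.4 and 491.7, were close to MDSC for Rps9, with a log2 fold change of -0.04 ± 0.23.

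Rpl7l1 had 3.08, 4.63 and 7.84 in tumor CD45- cells, against 12.8, 14.7 and 11.99 in MDSC (log2 fold change -1.26 ± 0.33, limma adjusted p = 0.0075). Rps27a, which is made as a fusion with ubiquitin, gave -0.98 ± 0.27 (limma adjusted p = 0.0097). Both calls were kept with each library left out, and both missed the threshold after median-ratio scaling (adjusted p = 0.075 for Rpl7l1 and 0.27 for Rps27a). Rpl3, which lies at the peptidyl transferase centre, was higher relative to the family in tumor CD45- cells than in MDSC by 0.64 ± 0.18 (limma adjusted p = 0.012), also with each library left out. Its deviations were 0.33, 0.39 and 0.71 in tumor CD45- cells, against -0.10, -0.20 and -0.20 in MDSC.

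Of 4 tested ribosomal protein genes whose symbols lie outside the rule, 1 was higher in CD45+ cells of tumor mice, 2 of anemia mice and 0 of neonatal mice. Beside these, 50.2%, 47.4% and 49.6% of all genes tested were higher, so the counts do not stand above the background. Fau, which encodes a small-subunit protein fused to a ubiquitin-like part, was higher in CD45+ cells in the tumor and anemia contrasts, by 1.06 ± 0.36 and 0.99 ± 0.36 in log2 (SE, limma adjusted p = 0.018 and 0.026). Its tumor call was lost without CD45- replicate 2 (adjusted p = 0.069), and its anemia call in 3 of 6 fits without a library. Gnb2l1, the ribosomal scaffold also known as Rack1, was higher in anemia mice by 0.98 (limma adjusted p = 0.029), and neither gene was called there without CD45- replicate 1 or 2.

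Genes of the machinery that builds ribosomes were counted in the same contrasts. Of 56 tested biogenesis genes, 32 were higher and 1 lower in tumor mice, 26 and 1 in anemia mice, and 36 and 1 in neonatal mice, with median log2 fold changes of 1.06, 0.89 and 1.28, while 50.2%, 47.4% and 49.6% of all genes were higher. Under median-ratio scaling 12 were higher and 5 lower, 10 and 5, and 14 and 4, with medians of 0.26, 0.16 and 0.44. No share of all genes under that scaling stands beside these counts, so they do not show a difference particular to ribosome biogenesis. Without CD45- replicate 1 the higher genes numbered 19 in tumor and 14 in anemia mice, and without CD45- replicate 3 they numbered 40 in tumor and 45 in anemia mice. Taf1b, a subunit of the factor that recruits RNA polymerase I to the rRNA genes, averaged 11.4 in tumor CD45+ cells and 2.10 in tumor CD45- cells (log2 fold change 2.03 ± 0.32, limma adjusted p = 4.2e-05). Its fold changes were 1.93 in anemia and 1.93 in neonatal mice. Taf1a, of the same factor, gave 2.07, 1.88 and 1.69, and no alternative ended a call of Taf1a or Taf1b.

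Myc, the transcription factor that drives ribosome production, was higher too. It had 27.1, 14.1 and 24.1 in tumor CD45+ cells, against 3.17, 7.84 and 6.97 in tumor CD45- cells. It had 29.8, 27.2 and 34.8 in anemia CD45+ cells, against 3.96, 5.02 and 10.03 in anemia CD45- cells. The groups did not overlap in any of the 3 states, and the log2 fold changes were 1.73 ± 0.40, 2.19 ± 0.40 and 1.88 ± 0.40 (SE, limma adjusted p = 0.0012, 1.6e-04 and 6.6e-04). Of 13 tested upstream regulators, Myc among them, 3 were higher and 1 lower in tumor mice, 5 and 0 in anemia mice, and 4 and 1 in neonatal mice, while 61.1%, 58.7% and 59.9% of all genes were called in either direction, whereas median-ratio scaling gave 1 and 7, 1 and 2, and 1 and 4. The shares of all genes are of the values as deposited, and none under median-ratio scaling stands beside the counts given for it. The higher regulators numbered 2 without CD45+ replicate 1, CD45+ replicate 2, CD45+ replicate 3, CD45- replicate 1 or CD45- replicate 2 in tumor mice. In anemia mice they numbered 2 without CD45+ replicate 1 or CD45- replicate 2 and 3 without CD45+ replicate 2, CD45+ replicate 3 or CD45- replicate 1. In neonatal mice they numbered 2 without CD45+ replicate 2.

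Translation factors, which work on the finished ribosome, were counted likewise, against the same 61.1%, 58.7% and 59.9% of all genes called. Those shares are of the values as deposited, and none under median-ratio scaling stands beside the counts given for it. The median-ratio counts therefore do not show a difference particular to translation factors. Of 29 tested initiation factors, 6 were higher and 2 lower in tumor mice, 3 and 1 in anemia mice and 5 and 2 in neonatal mice, whereas median-ratio scaling gave 1 higher and 17 lower, 1 and 17, and 1 and 14. Without CD45- replicate 3, 9 were higher and 0 lower in tumor mice and 12 and 2 in anemia mice. The higher ones numbered 3 in tumor mice without CD45- replicate 1, 2 in anemia mice without CD45+ replicate 2, CD45- replicate 1 or CD45- replicate 2, and 2 in neonatal mice without CD45- replicate 3. Eif4a2, an RNA helicase of initiation, rose in each state, with log2 fold changes of 1.88, 2.11 and 1.76 (limma adjusted p = 0.0014, 5.8e-04 and 0.0025), and no alternative ended these calls. Of 8 elongation factors, 1 was higher and 0 lower in tumor mice, 3 and 1 in anemia mice and 0 and 1 in neonatal mice, whereas median-ratio scaling gave 0 and 3, 0 and 2, and 0 and 3. In tumor mice 0 were called in 4 of the 6 fits without a library and 2 were higher without CD45- replicate 3. In anemia mice 1 was higher without CD45- replicate 1 or 2, 2 without any CD45+ replicate and 5 without CD45- replicate 3. Gtpbp2, which acts on stalled ribosomes, averaged 52.0 in tumor CD45+ cells and 333.1 in tumor CD45- cells. It was lower in all 3 states, with log2 fold changes of -2.65, -1.91 and -2.33 (limma adjusted p = 3.7e-05, 8.4e-04 and 1.4e-04). Of 9 rescue and recycling factors, 1 was higher and 1 lower in tumor mice, 1 and 1 in anemia mice and 1 and 2 in neonatal mice.

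Of 11 tested genes of the p53 response to nucleolar stress, 4 were higher and 3 lower in tumor mice, 6 and 0 in anemia mice and 5 and 3 in neonatal mice, beside 61.1%, 58.7% and 59.9% of all genes called. Median-ratio scaling gave 1 and 5, 1 and 2, and 1 and 3, with no share of all genes under that scaling beside them. Without CD45- replicate 1 the higher genes numbered 3 in anemia mice. Pmaip1, the BH3-only protein Noxa, averaged 6.78 in tumor CD45+ cells and 0.281 in tumor CD45- cells, and its log2 fold changes were 2.46, 2.75 and 2.48 in tumor, anemia and neonatal mice (limma adjusted p = 2.0e-04, 7.2e-05 and 1.9e-04).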

How the data were processed

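The authors deposited 1 table of log2 expression values per gene and library, per the file headers. Bowtie 0.12.2 and the mm8 build are named in the submitters' processing notes, and the scale behind the log2 values is not given in the sources used here. The labels give spleen as the tissue, while their extraction text speaks of retinas. Blank cells (7.90%) were taken as 0. Values were turned back to a linear scale, and log2(value + 1) was tested with limma 3.58.1 (trend and robust, R 4.3.3, statmod 1.5.0), two-sided, on genes that reached 1 in no fewer than 3 of the libraries fitted. Group differences among the 18 Ter119+CD71+ libraries came from 1 fit (11195 genes), and those with MDSC from a fit of the 9 tumor libraries (10255 genes), with Benjamini-Hochberg adjustment over all tested genes and a threshold of 0.05. Tables and figures used Python 3.11.15, pandas 2.3.3, numpy 2.4.6 and matplotlib 3.10.9. The fits were first tested on simulated data. No read depth is known, so no counting interval is given.

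The members, the lists and the tests were chosen with earlier results of these data known. Members named with values were, in each comparison, up to 3 with the largest positive and 3 with the largest negative fold change among called members without overlap, a fixed list of stalk, paralog and disease-related members, the 5 with the lowest correlation with the others, and up to 3 of each further list with the smallest adjusted p in the tumor CD45 contrast; Rps2, Rps9, Rpl3 and Rpl6 relative to the family, Rps27rt and Gnb2l1 were named after their values were seen. A few results of single genes are not reported here. Libraries with the same replicate number deviated together, with correlations of 0.112 to 0.272 between tumor CD45+ and CD45- cells, 0.109 to 0.226 in anemia and 0.215 to 0.362 in neonatal mice. Over all pairs of groups the same-number correlations ran from -0.1705 to 0.411 with a median of 0.112. Between tumor CD45- and anemia CD45- cells, which come from different mice, they were 0.0545 to 0.411. An alternative fit added the replicate number as a block shared by all groups, which does not pair CD45+ with CD45- cells within a state. Other alternatives changed the pseudocount, the filter, the scaling, the treatment of blanks, the libraries in the fit and the limma options.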

Additional observations from a re-analysis of the deposited data

How the results depend on the processing

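Calls among the 80 ribosomal protein genes depended on how libraries were scaled. Shares of all genes called are given for the values as deposited only, so the counts below have no background beside them. Under median-ratio scaling the CD45+ over CD45- contrasts called 6 genes in tumor mice (1 higher, 5 lower), 7 in anemia mice (3 and 4) and 9 in neonatal mice (0 and 9), 0 between tumor CD45+ cells and MDSC, and 17 between tumor CD45- cells and MDSC (16 and 1). With hemoglobin left out and the rest rescaled, the counts were 11 in tumor and 2 in neonatal mice, 2 between tumor CD45+ cells and MDSC, and 7 (6 higher, 1 lower) between tumor CD45- cells and MDSC. Scaled to the family's own median, they were 6, 8 and 3 in tumor, anemia and neonatal mice, 0 for tumor CD45+ cells and 10 (7 higher, 3 lower) for tumor CD45- cells against MDSC; by construction this scaling centres the family. Quantile normalization called 1 gene for tumor CD45+ against anemia CD45+ cells and none (0) between tumor CD45+ cells and MDSC, no filter called 1 for tumor CD45+ against neonatal CD45+ cells, and the fit of all 21 libraries called 8 for tumor CD45- cells against MDSC. Leaving out 1 library at a time gave 13 to 40 calls in tumor, 19 to 73 in anemia and 3 to 6 in neonatal mice, 0 between tumor CD45+ cells and MDSC, 5 to 39 for tumor CD45- cells against MDSC, and 0 in the other comparisons. Only libraries of the groups compared were left out. The outlying anemia CD45- replicate 3 therefore stayed in every fit that compared CD45+ groups with each other, and its effect on their spread was not tested. With the replicate number as a block, the 3 CD45 contrasts called 36, 47 and 10 genes, beside 29, 46 and 8 without it, and the block changed no other count by over 1.5 times. Mean shares without hemoglobin in the sum were 9.17% in tumor CD45+ and 7.08% in tumor CD45- cells, 11.65% in anemia CD45+ cells, and 9.66% in neonatal CD45+ and 8.43% in neonatal CD45- cells. Single genes that changed sign under median-ratio scaling were Rpl10 (-0.017) and Rps6kb1 (-0.054) in tumor, Rplp2 (-0.014) in anemia, and Rps27 (-0.011) and Rps28 (-0.073) in neonatal mice; under quantile normalization, Rpl7l1 (-0.012) and Ltn1 (-0.075) in neonatal mice; and under scaling to the family, Rplp2 (-0.10), Rps6 (-0.085), Ltn1 (-0.051), Rps6kb1 (-0.093) and Bax (-0.057) in anemia mice. Apart from what the construction shows, the cause was not tested. Read depth is unknown, so its limit cannot be given.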
